A study of Mus musculus with 12 samples.

Results

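The chemokine ligands and their receptors were examined in the livers of septic mice. Members were chosen by gene symbol alone: every symbol of the deposited table that reads as a numbered Ccl, Cxcl, Ccr or Cxcr gene, with Cx3cl1, Cx3cr1, Xcl1 and Xcr1. This gave 74 of the 25611 rows of the table and 57 distinct symbols, 39 ligands and 18 receptors. The livers came from 12 male C57BL/6J mice, 8 to 10 weeks old, in 3 groups of 4: sham-operated mice, mice with cecal ligation and puncture (CLP, a surgical model of abdominal sepsis), and CLP mice given dichloroacetate (CLP+DCA). DCA, an inhibitor of the pyruvate dehydrogenase kinases, was injected intraperitoneally at 25 mg/kg at 24 hr post-surgery, and every liver was collected at 30 hr. Sham mice had the abdominal incision without ligation or puncture, all animals received saline under the skin, and the sources used here do not say whether sham and CLP mice received a vehicle injection. Whole liver was sequenced, so that resident and infiltrating cells are measured together, and a group with fewer cells of a type cannot be told apart from one with less RNA per cell.

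Chemokines are small secreted proteins that bind G protein-coupled receptors on leukocytes and guide their migration. In the liver, hepatocytes, Kupffer cells, stellate cells and the sinusoidal endothelium all make them, and transcription of many inflammatory members is induced through NF-κB and interferon signaling. The CXC ligands with an ELR motif (Cxcl1, Cxcl2, Cxcl3, Cxcl5) attract neutrophils through Cxcr2, the interferon-inducible ligands Cxcl9, Cxcl10 and Cxcl11 attract T cells and NK cells through Cxcr3, and the inflammatory CC ligands attract monocytes and other leukocytes through Ccr1, Ccr2, Ccr3 and other receptors.

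Depth ran from 24436513 to 44266819 reads counted on genes per mouse. By the expression of all genes, CLP+DCA replicate 3 stood apart from the rest of its group: on the first principal component, which held 59.2% of the variance, it lay at 82.6, where the other CLP+DCA mice lay between -28.9 and -16.4, the sham mice between -40.6 and -33.1 and the CLP mice between 8.66 and 72.8. Comparisons of the CLP+DCA group were therefore also fitted without it. The calls are given both ways, as are the values of some of the members that changed, not of all. Alb, the gene of albumin, the main secreted protein of hepatocytes, had a mean of 46672 CPM (reads scaled to library size) in sham.

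Enough reads for the test were found for 25 of the 57 symbols, 18 of the ligands and 7 of the receptors. These passed edgeR's filter on low counts (a minimum of about 10 reads in at least 4 mice). Their totals over the 12 mice ran from 125 reads (Cxcr4) to 154354 reads (Cxcl12). Another 25 symbols had between 1 and 147 reads in all and did not pass, and 7 symbols had no read in any mouse: Ccl19, Ccl21a, Ccl21b, Ccl21c, Ccl26, Ccl27b and Ccr8. Of these 7, Ccl19, Ccl21a, Ccl21b, Ccl21c and Ccl27b are listed at 2 to 7 places each, 22 rows in all. The Ccl21 and Ccl27b rows overlap rows of other genes on the same strand, and how reads that match several places or genes were counted is not given in the sources used here. The filter lets a gene pass on the mice where it is high: Cxcl5 passed with 3 reads in the 4 sham mice together and 112 in the 4 CLP mice. The minimum scales with depth, and CLP replicate 1, with 11 reads at the greatest depth of the 12 mice, fell below it. Cxcl5 thus needed CLP+DCA replicate 3, with 85 reads, to reach 4 mice. Counts over the members that passed are for that reason descriptions of those 25 genes only.

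**Figure D1:**
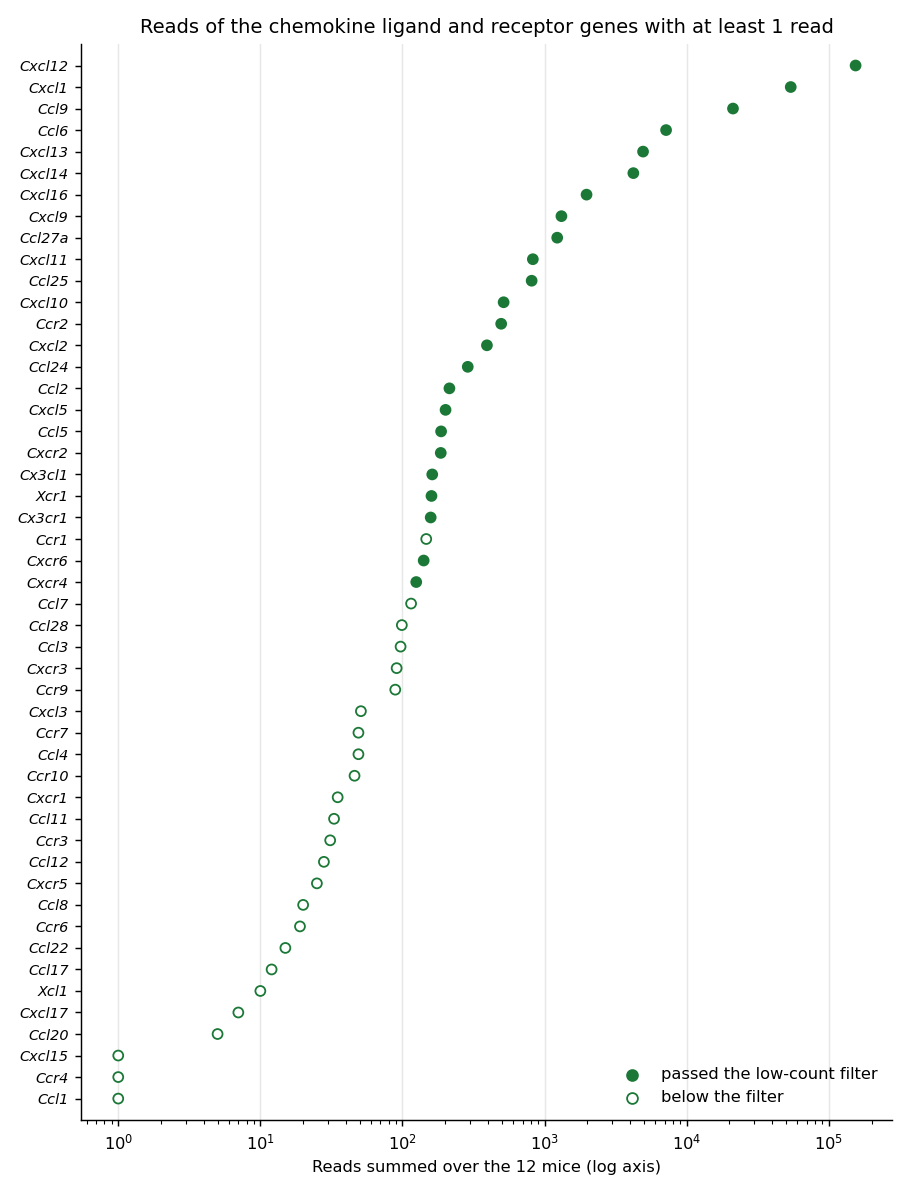
Reads of each chemokine ligand or receptor gene summed over the 12 mice, on a log axis, for 49 symbols with at least 1 read. Filled points mark 24 that passed the low-count filter. Cxcl12 (154354 reads) and Cxcl1 lead, and Ccl1, Ccr4 and Cxcl15 have 1 read each.

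Levels between genes were compared as CPM per kilobase of exon, with exon lengths from GENCODE M21. These lengths join the exons of all transcripts of a gene, so that bases spliced out of the main transcript can count as exon. For Cxcl1 the length was 1875 bases, which takes in its whole locus, introns included, and for Cxcl12 it was 8176 bases. The levels and the order of genes below hold for these lengths only, and other lengths were not tried. In sham, Cxcl12, which holds hematopoietic cells in place through Cxcr4, had the highest level of the 25 at 55.3 ± 3.75 CPM per kb (SD, n = 4 mice), followed by Cxcl1 at 32.4 ± 4.56 and Ccl9 at 21.5 ± 3.83. The next was Ccl6, far lower at 2.35 ± 0.537 CPM per kb, and the other 21 were between 0.0120 (Cxcl5) and 1.73 (Ccl27a). In CLP the order changed: Cxcl1 stood first at 152 ± 46.1 CPM per kb, ahead of Cxcl12 at 38.7 ± 13.3, Cxcl13 at 24.1 ± 12.1, Ccl6 at 17.6 ± 7.35 and Ccl9 at 17.1 ± 3.04, and the last 3 of these did not differ beyond their spread. In CLP+DCA, Cxcl1 was at 48.7 ± 16.6 and Cxcl12 at 47.6 ± 16.7 CPM per kb with all 4 mice. Without CLP+DCA replicate 3, Cxcl12 at 55.4 ± 7.28 CPM per kb stood ahead of Cxcl1 at 41.0 ± 7.66 (n = 3 mice), the order of sham. As a share of all chemokine and receptor CPM, not per length, Cxcl1 took 8.18 to 11.3% in sham livers, 28.8 to 46.2% after CLP and 11.2 to 24.9% after CLP with DCA, where the 24.9% was replicate 3 and the other 3 mice reached at most 14.0%. The summed CPM of all members moved less, with ranges of 587 to 643 for sham, 675 to 831 for CLP and 541 to 665 for CLP+DCA.

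The upstream sequences of 4 members are shown because 3 of them, Cxcl1, Cxcl2 and Cxcl3, are neighbours of 1 gene cluster on chromosome 5 with more reads in CLP, and the other, Cxcl10, is also on chromosome 5 and had fewer. The sequences are from RefSeq (GRCm38.p6, which has the coordinates of mm10). They run 5′ to 3′ along the gene's strand and end at the base before the transcription start. Capitals mark matches to a κB motif searched as GGGANNTTC and to the core of an interferon-stimulated response element (ISRE) searched as GAAANNGAA, on both strands. Both patterns are short forms that leave out the last base of the longer form first searched, so they match more sequences than that form. Each pattern also has fixed bases, and sites that differ from it at these bases were not searched for. A stretch in lower case is therefore not shown to lack a κB site or an ISRE.
Cxcl1 (chr5:90891095-90891244, plus strand): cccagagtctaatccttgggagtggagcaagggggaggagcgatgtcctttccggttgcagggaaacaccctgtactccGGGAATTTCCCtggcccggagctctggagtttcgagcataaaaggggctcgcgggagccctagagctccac
Cxcl2 (chr5:90903749-90903898, plus strand): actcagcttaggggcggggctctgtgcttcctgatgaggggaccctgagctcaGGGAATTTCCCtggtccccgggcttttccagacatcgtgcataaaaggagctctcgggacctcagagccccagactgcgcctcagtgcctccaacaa
Cxcl3 (chr5:90785951-90786100, plus strand): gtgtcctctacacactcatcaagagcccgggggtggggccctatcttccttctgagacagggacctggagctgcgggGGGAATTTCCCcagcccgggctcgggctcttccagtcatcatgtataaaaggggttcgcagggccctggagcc
Cxcl10 (chr5:92348890-92349139, minus strand): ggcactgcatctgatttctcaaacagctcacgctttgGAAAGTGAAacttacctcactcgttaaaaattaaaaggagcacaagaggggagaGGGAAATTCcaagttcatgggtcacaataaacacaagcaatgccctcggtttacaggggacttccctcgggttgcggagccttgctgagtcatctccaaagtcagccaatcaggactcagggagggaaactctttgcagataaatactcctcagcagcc

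The same κB match, GGGAATTTC, began 71 bases before the start of Cxcl1, 97 before that of Cxcl2 and 73 before that of Cxcl3. On the minus strand an overlapping match lay 2 bases nearer the start in each of these 3. Cxcl10 carried GGGAAATTC at 159 bases and an ISRE core, GAAAGTGAA, at 213 bases before its start. RefSeq gave an upstream sequence of 250 bases for 41 of the 57 symbols, and for 38 of them it ended at the start listed in the table. Of these 38, 8 held a match to GGGANNTTC (Ccl1, Ccr3, Cxcl1, Cxcl2, Cxcl3, Cxcl9, Cxcl10 and Cxcr2), against 3.23% of all 32851 upstream sequences of that length. The ISRE core was in 7 of the 38 (Ccl1, Ccl3, Ccr2, Cxcl9, Cxcl10, Cxcl14 and Cxcr1) and in 7.13% of all, and the interferon-gamma activated site searched as TTCCNGGAA was in none of the 38 and in 0.913% of all. Some of the other members with a κB match had almost no reads here (Ccl1 with 1 read, Ccr3 with 31). Cxcl5 and Cxcl11 were not among the 38.

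In CLP versus sham, 4 of the 25 members passed the test at an FDR of 0.05 and all 4 were higher in CLP: Cxcl1, Cxcl2, Cxcl13 and Ccl6. Over all 13190 genes tested, 2.78% were called (1.64% higher, 1.14% lower). Values of the 25 members ran from a log2 fold change of -1.43 (Cxcl9) to 5.28 (Cxcl5), with a median of 0.23, where the median of all genes was 0.018. The 4 CLP mice did not overlap the 4 sham mice in 10 members, 7 higher and 3 lower, where 26.5% of all genes tested did not overlap (12.2% higher, 14.2% lower). At an unadjusted p under 0.05 there were 7 members higher and 4 lower, and 28.6% of all genes. The calls depended on the tool and on single mice. DESeq2 on the 8 mice compared, closer to the authors' method, called 14 of the 49 members in its fit (11 higher and 3 lower, background 23.3%). That fit did not use edgeR's filter. Higher were Cxcl1, Cxcl2, Cxcl5, Cxcl13, Cxcl14, Ccl6 and Cxcr2, with Cxcl3, Ccl7, Ccl28 and Ccr1, which were below edgeR's filter. Lower were Cxcl9, Cxcl10 and Ccl27a. In edgeR, leaving out any 1 sham mouse, or CLP replicate 1, 2 or 4, left Cxcl1 alone. Without CLP+DCA replicate 1 or 2, Cxcl1 and Cxcl13 were left.

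**Figure D2:**
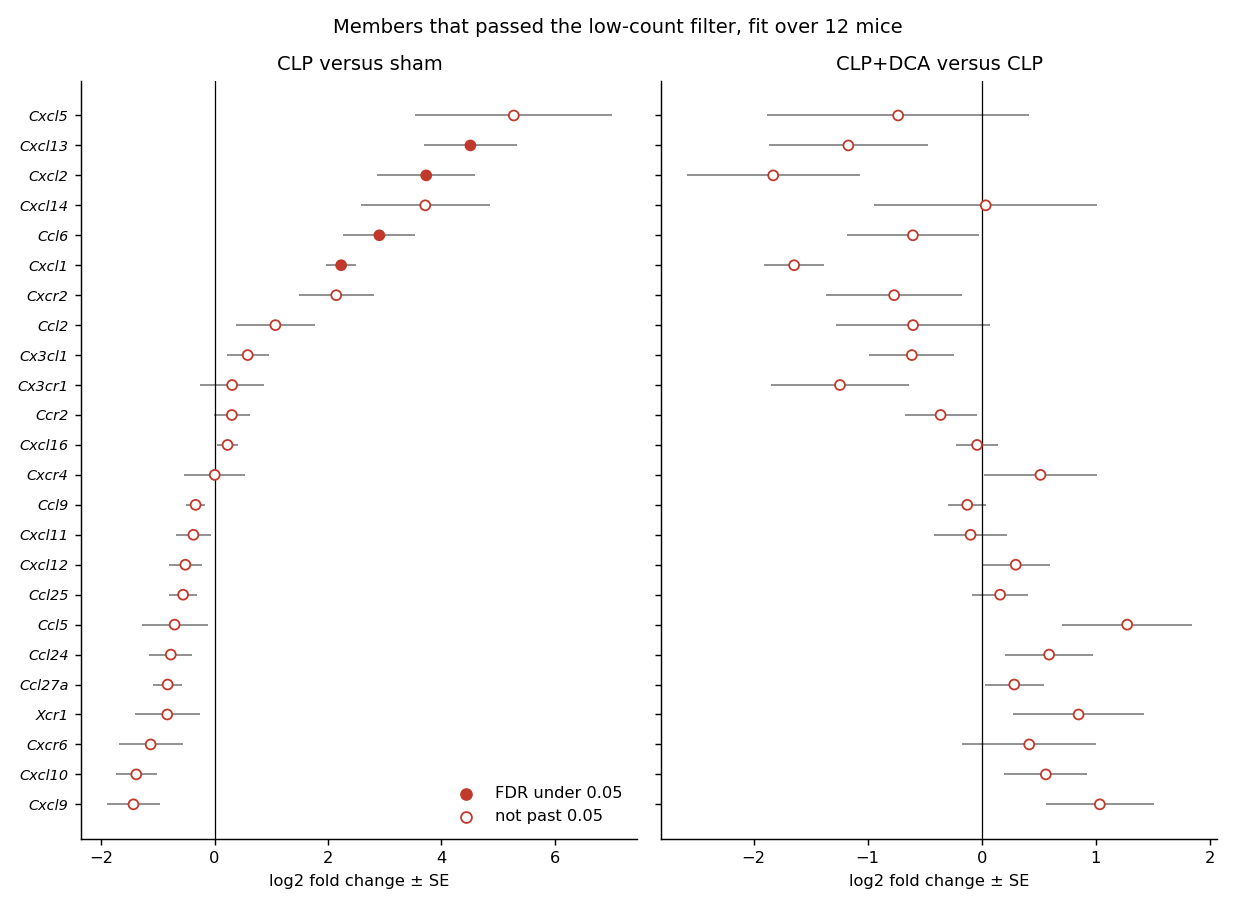
Log2 fold changes with standard errors of 24 members that passed the low-count filter, in CLP versus sham (left) and CLP+DCA versus CLP (right), from 1 edgeR fit of 12 mice. Filled points are past an FDR of 0.05: Cxcl13 (4.51), Cxcl2 (3.73), Ccl6 (2.91) and Cxcl1 (2.23) on the left, none on the right.

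Among the ELR ligands, Cxcl1 (NCBI Gene 14825, chr5:90891245-90893115) had the most reads. Its CPM was 60.0, 70.4, 49.7 and 62.6 after sham surgery, 231, 340, 194 and 376 after CLP, and 74.7, 63.6, 135 and 92.1 with DCA. Every CLP mouse was above every sham and every CLP+DCA mouse, while CLP+DCA overlapped sham. Cxcl1 rose by 2.23 on the log2 scale in CLP versus sham (SE 0.27, adjusted p = 0.00845), and this call stood in all 12 fits that left out 1 mouse (adjusted p from 0.000438 to 0.0445). Against sham, CLP+DCA gave a log2 fold change of 0.59 (SE 0.26, adjusted p = 0.369), and 0.34 without replicate 3 (SE 0.22, adjusted p = 0.688).

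Cxcl2 (chr5:90903899-90905938), whose gene begins 10.8 kb after the end of Cxcl1, was much less abundant. Sham mice had 0.112, 0.248, 0.0633 and 0.274 CPM, CLP mice 1.96, 3.06, 0.822 and 4.04, and CLP+DCA mice 0.255, 0.202, 2.03 and 0.191. The CLP mice lay above all sham mice, and of the CLP+DCA mice replicate 3 alone lay within the CLP range. The rise in CLP versus sham was 3.73 on the log2 scale (SE 0.87, adjusted p = 0.0475).

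Cxcl5 (chr5:90759298-90761625) was nearly unread in sham, at 0.0372, 0.0248, 0 and 0.0274 CPM, and stood at 0.253, 1.29, 0.846 and 1.75 CPM in CLP. In CLP+DCA it was at 0, 0.0336, 2.30 and 0 CPM, so that 1 mouse of that group held nearly all its reads. With 112 reads in CLP and 3 in sham the ratio of read rates was 39.5, with an exact 95% interval of 13.2 to 195 that covers counting error only. The log2 fold change of 5.28 (SE 1.74) did not pass the test (adjusted p = 0.0870). Cxcl3, below the filter, showed 37 reads in CLP (22, 7, 6 and 2 per mouse), 1 in sham and 13 in CLP+DCA, of which replicate 3 gave 11. Cxcl15, which lies between Cxcl3 and Cxcl1, had a single read.

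Cxcr2, the receptor of these ligands on neutrophils, had CPM of 0.260, 0.0990, 0.158 and 0.191 in sham and 0.415, 0.718, 1.26 and 0.718 in CLP. All CLP values lay above all sham values, but its log2 fold change of 2.15 (SE 0.66) was not past the threshold (adjusted p = 0.0771). In CLP+DCA it was at 0.0958, 0.202, 1.11 and 0.382 CPM, again highest in replicate 3. Cxcr1, the other receptor of this group, had 35 reads in all: 8 for sham, 14 for CLP and 13 for CLP+DCA.

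**Figure D3:**
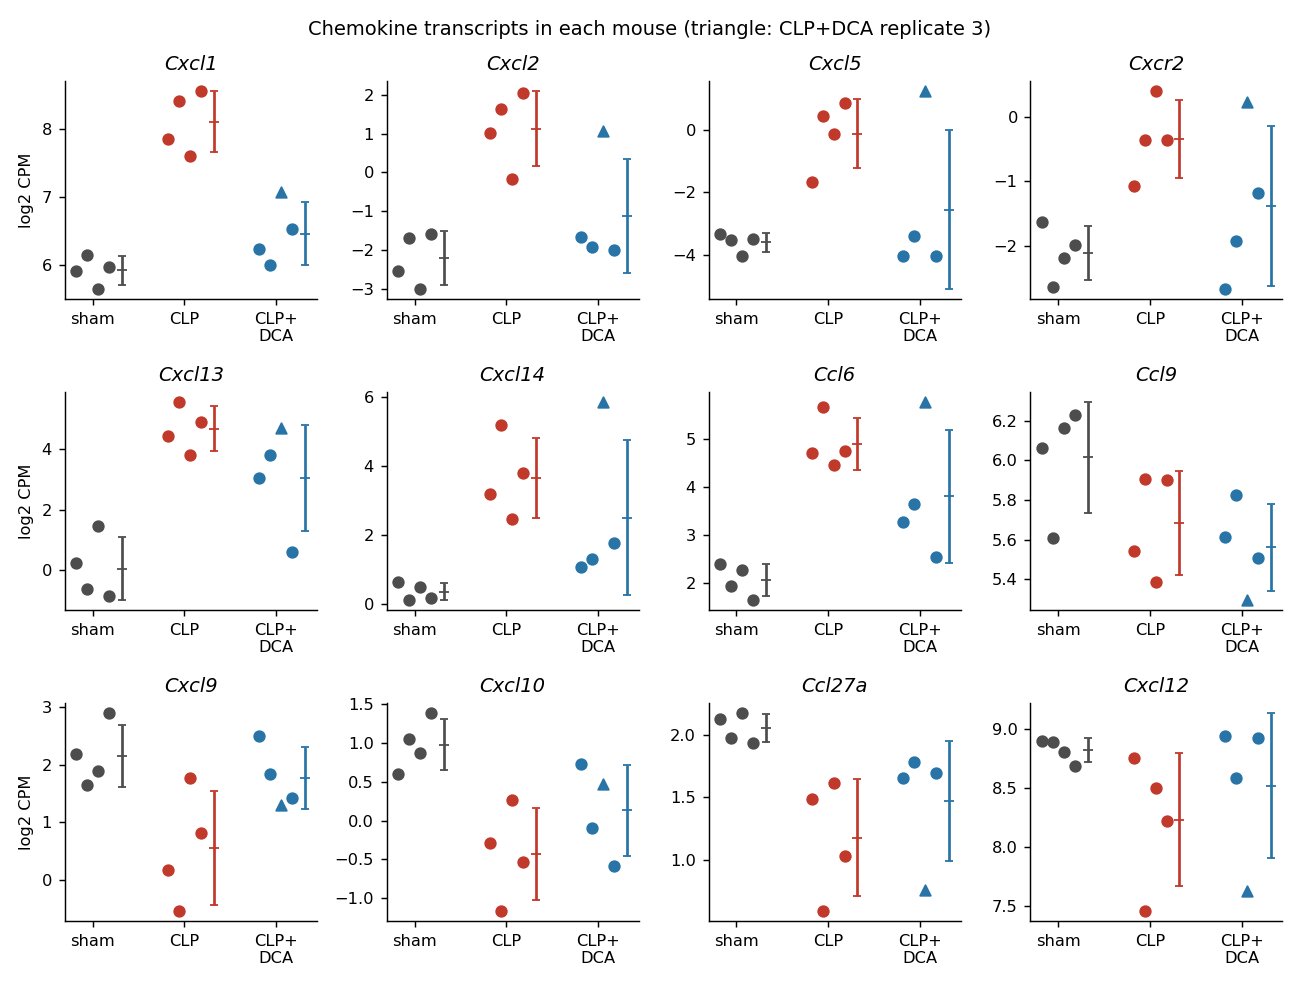
Log2 CPM (prior count 2) of 12 members in each mouse, 4 mice per group, with the mean and SD of each group beside the points; the triangle is CLP+DCA replicate 3. In Cxcl1 all CLP mice lie above all other mice, and in Cxcl2, Cxcl5, Cxcr2, Cxcl14 and Ccl6 the triangle lies with or above the CLP mice.

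Cxcl13, the ligand of Cxcr5 that draws B cells, rose by 4.51 on the log2 scale in CLP versus sham (SE 0.82, adjusted p = 0.0275). Its CPM was 1.12, 0.594, 2.69 and 0.492 in sham, 21.5, 46.2, 13.8 and 29.1 in CLP, and 8.17, 13.7, 25.6 and 1.46 in CLP+DCA. Sham and CLP did not overlap, and in CLP+DCA 1 mouse lay within the sham range and 1 within the CLP range, with the others above sham and below CLP. Its receptor Cxcr5 did not pass the filter, with 18 reads for sham, 4 for CLP and 3 for CLP+DCA. B cell markers were low throughout: the summed CPM of 6 genes was 2.38 to 4.24 for sham, 0.287 to 1.86 for CLP and 0.569 to 2.30 for CLP+DCA, and none of the 4 that passed the filter was called in any comparison with all 12 mice.

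Cxcl14, a chemokine made by many epithelia, had 1.49, 1.02, 1.33 and 1.07 CPM in sham and 9.01, 36.4, 5.39 and 13.9 in CLP. Although these did not overlap, its spread was wide and the log2 fold change of 3.72 (SE 1.14) was not past the threshold (adjusted p = 0.0770). In CLP+DCA, 3 mice had 2.04, 2.39 and 3.34 CPM and replicate 3 had 57.7, more than any CLP mouse.

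Cxcl12 had the highest mean CPM of all members over the 12 mice, although CLP replicates 2 and 4 had more Cxcl1. Sham mice had 476, 474, 448 and 411 CPM, CLP mice 430, 175, 363 and 297, and CLP+DCA mice 489, 384, 198 and 485. The groups overlapped, and the log2 fold change in CLP versus sham was -0.51 (SE 0.30, adjusted p = 0.261). The lowest values of the 12 were in CLP replicate 2 and CLP+DCA replicate 3. Its receptor Cxcr4 had 0.00 as log2 fold change (SE 0.54, adjusted p = 0.997), with 0.270 ± 0.0943 CPM in sham and 0.277 ± 0.0845 in CLP. Cxcl16, a membrane-bound ligand, had a log2 fold change of 0.23 (SE 0.19, adjusted p = 0.416) and its receptor Cxcr6 one of -1.13 (SE 0.57, adjusted p = 0.208). Cxcr6 lies wholly within Fyco1 on the opposite strand, which had 956 to 3206 reads per mouse, and the strand setting of the counting is not given in the sources used here.

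The interferon-inducible ligands, whose genes share an interval of 42.0 kb, had lower values in CLP than in sham, none past the threshold. Cxcl10 (chr5:92346639-92348889) had 1.45, 2.01, 1.77 and 2.54 CPM in sham, 0.760, 0.383, 1.14 and 0.629 in CLP and 1.60, 0.874, 1.33 and 0.604 in CLP+DCA. All CLP mice were below all sham mice, and the log2 fold change of -1.38 (SE 0.36) narrowly missed the threshold (adjusted p = 0.0581). Cxcl9 (chr5:92321331-92328079) had 4.46, 3.07, 3.64 and 7.36 CPM in sham, 1.06, 0.622, 3.36 and 1.71 in CLP and 5.59, 3.50, 2.41 and 2.61 in CLP+DCA. CLP replicate 3 alone overlapped sham, and the log2 fold change was -1.43 (SE 0.47, adjusted p = 0.0885). Without that mouse both were called, at -1.68 for Cxcl10 and -2.03 for Cxcl9, and without CLP+DCA replicate 4 Cxcl10 was called. Cxcl11, the third of this cluster, had a log2 fold change of -0.37 (SE 0.32, adjusted p = 0.434). Their receptor Cxcr3 was below the filter, with 42 reads for sham, 18 for CLP and 31 for CLP+DCA.

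Cxcl10 and Cxcl11 both lie inside Art3 on the opposite strand. Art3 had 174 reads in CLP replicate 3 and 4 to 31 in the other 11 mice, and its part in the Cxcl10 value of that mouse was not tested. Cxcl9 lies outside Art3.

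**Figure D4:**
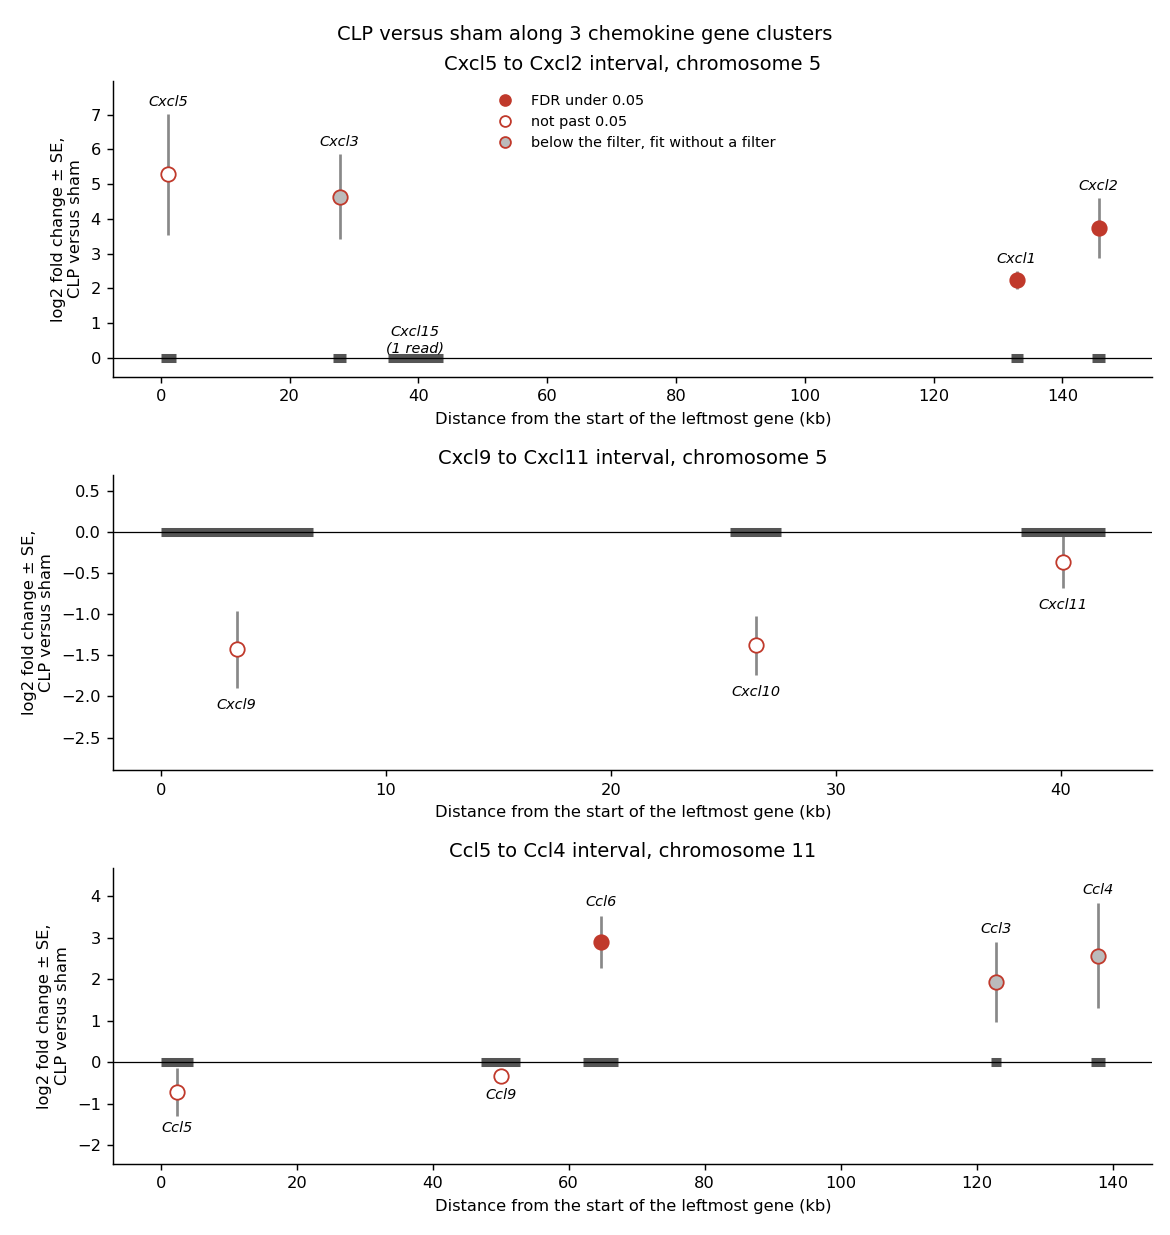
Log2 fold change ± SE in CLP versus sham of the genes in 3 chemokine clusters, against distance in kb from the start of the leftmost gene; grey bars on the zero line mark the genes. Filled red points are past an FDR of 0.05, open points are not, and grey points (Cxcl3, Ccl3, Ccl4) did not pass the filter and come from a fit without it. The ELR cluster (147 kb) lies above zero, the Cxcl9 to Cxcl11 interval below it, and Ccl6 (2.91) sits beside Ccl9 (-0.33).

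Among the CC ligands, Ccl6 (chr11:83587886-83593087) was the member called. Ccl6 and Ccl9 are CC chemokines of rodents that act through Ccr1. Ccl6 was at 5.21, 3.81, 4.78 and 3.06 CPM in sham, 26.3, 51.1, 21.9 and 27.1 in CLP, and 9.67, 12.5, 54.9 and 5.82 in CLP+DCA. Every CLP mouse and every CLP+DCA mouse lay above every sham mouse. Ccl6 rose by 2.91 on the log2 scale in CLP versus sham (SE 0.63, adjusted p = 0.0418). E230016K23Rik, which overlaps it on the opposite strand, had at most 1 read per mouse. Ccl9 (chr11:83572917-83578636), which ends 9.25 kb before the Ccl6 locus begins, had 66.7, 48.7, 71.5 and 74.9 CPM in sham, 46.5, 59.9, 41.8 and 59.7 in CLP and 48.9, 56.7, 39.1 and 45.5 in CLP+DCA. These ranges overlapped, and the log2 fold change in CLP versus sham was -0.33 (SE 0.17, adjusted p = 0.204).

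Other inflammatory CC ligands had few reads. Ccl2, the main monocyte attractant, had 0.349 ± 0.0524 CPM for sham, 0.733 ± 0.318 for CLP and 0.476 ± 0.609 for CLP+DCA, a log2 fold change of 1.07 in CLP versus sham (SE 0.69, adjusted p = 0.308). CLP+DCA replicate 3 had 1.38 CPM, and the mean of the group without it was 0.174 ± 0.0959 (n = 3 mice). The log2 fold change of CLP+DCA versus sham turned from 0.47 with it to -1.003 without it, neither past the threshold. Its receptor Ccr2 stood at 0.31 (SE 0.31, adjusted p = 0.524). Below the filter, Ccl7 had 8 reads in sham and 64 in CLP, Ccl12 had 1 and 17, Ccl3 had 12 and 50, and Ccl4 had 4 and 28. Single mice gave much of these sums: CLP replicate 3 had 38 of the 64 Ccl7 reads and 8 of the 17 for Ccl12, and CLP replicate 1 had 34 of the 50 for Ccl3 and 16 of the 28 for Ccl4. In Ccl3 the other CLP mice had 7, 6 and 3 reads, which overlapped the 0 to 6 of sham. Ccl11, an eotaxin, had no read in sham and 26 in CLP, 21 of them in CLP replicate 3. Its read rate in CLP was 9.17 times that of a floor of 3 reads over the sham group, with the 26 reads taken as exact. Ccr1, the receptor of several of these ligands, had 21 reads for sham, 82 for CLP and 44 for CLP+DCA, of which CLP replicate 3 gave 45 and CLP+DCA replicate 3 gave 34. In a fit without a filter, 50 members could be tested and Cxcl1 alone was called (background 0.647%). In that edgeR fit the smallest adjusted p values among members below the filter were 0.0776 for Cxcl3, 0.0948 for Ccl7 and 0.0976 for Ccl12. DESeq2 on the 8 mice compared did call Cxcl3 (adjusted p = 0.00287), Ccl7 (0.00314), Ccr1 (0.0187) and Ccl28 (0.0221), all higher in CLP. It did not call Ccl3, Ccl4 or Ccl11 and gave no adjusted p for Ccl12. DESeq2 on all 12 mice called Cxcl3, Ccl7 and Ccl28 but not Ccr1 (adjusted p = 0.115).

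Ccl5, a CC ligand made by T cells and NK cells, had 0.670, 0.173, 0.507 and 0.547 CPM in sham, 0.369, 0.431, 0.242 and 0.0898 in CLP and 1.34, 0.706, 0.487 and 0.254 in CLP+DCA. The 3 groups overlapped, with a log2 fold change of -0.70 in CLP versus sham (SE 0.58, adjusted p = 0.422). Ccl24, an eotaxin that acts through Ccr3, had 1.26, 0.817, 0.918 and 0.602 CPM in sham, 0.622, 0.479, 0.629 and 0.314 in CLP and 1.12, 0.739, 0.325 and 0.986 in CLP+DCA. Here sham and CLP overlapped, with CLP replicates 1 and 3 above sham replicate 4, and the log2 fold change was -0.77 (SE 0.38, adjusted p = 0.202).

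Ccl27a and Ccl25 belong to the homeostatic ligands, known for guiding T cells to skin and gut. Ccl27a had 4.32, 3.89, 4.46 and 3.78 CPM in sham, 2.74, 1.44, 3.00 and 1.98 in CLP and 3.10, 3.39, 1.62 and 3.18 in CLP+DCA. Every sham mouse was above every other mouse, yet the log2 fold change of -0.83 in CLP versus sham (SE 0.26) was not past the threshold (adjusted p = 0.0797). Ccl25 had 2.57, 2.75, 2.37 and 2.35 CPM in sham, 1.66, 1.48, 2.25 and 1.39 in CLP and 1.5005, 2.49, 1.22 and 2.45 in CLP+DCA. The sham mice lay above all CLP mice, by a narrow gap, with a log2 fold change of -0.55 (SE 0.25, adjusted p = 0.165).

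The remaining tested members were Cx3cl1 (log2 fold change 0.59 in CLP versus sham, adjusted p = 0.300), its receptor Cx3cr1 (0.31, adjusted p = 0.729) and Xcr1, a receptor of conventional dendritic cells (-0.83, adjusted p = 0.336). Below the filter, more than 40 reads in all were found for Ccl28 (99), Ccr9 (89), Ccr7 (49) and Ccr10 (46). Ccl28, a mucosal ligand, had 13 reads in sham and 52 in CLP, 27 of these in CLP replicate 3. Fewer were found for Ccr3 (31), Ccl8 (20), Ccr6 (19), Ccl22 (15), Xcl1 (10), Cxcl17 (7), Ccl20 (5), Ccl1 (1) and Ccr4 (1), with too few reads to place a difference between groups. Ccl17, with 12 reads in all, was unread in sham, with 5 reads after CLP and 7 in CLP+DCA (1, 2, 3 and 1 per mouse). Its read rate in CLP+DCA was 2.44 times that of a floor of 3 reads over the sham group. This takes the 7 reads as exact and is not a lower limit, and these reads too are too few to place a difference.

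When CLP+DCA was compared with sham, edgeR called none of the 25 members, beside 0.0379% of all genes. At an unadjusted p under 0.05 there were 5 members higher and 2 lower, where 13% of all genes reached it (8.14% higher, 4.85% lower). DESeq2 on all 12 mice called Cxcl13, Ccl6 and Cxcl14, all higher (background 1.94%), and on the 8 mice compared Ccl6 and Cxcl13 (background 1.35%). The fit on the 8 mice gave no p value for Cxcl14, Cxcl2 and Cxcl5, so that these were not tested in it. The largest log2 fold changes were 4.55 for Cxcl5 (adjusted p = 0.325), 3.75 for Cxcl14 (0.275), 3.35 for Cxcl13 (0.225) and 2.30 for Ccl6 (0.238). The CLP+DCA mice did not overlap the sham mice in Ccl6 and Cxcl14 (both above) and in Ccl27a (below), where 9.76% of all genes did not overlap (4.78% above, 4.97% below). Without CLP+DCA replicate 3 the values became -0.82 for Cxcl5, 1.09 for Cxcl14, 2.70 for Cxcl13 and 1.15 for Ccl6, and none of 28 members tested was called (background 0.0828%).

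Between CLP+DCA and CLP, edgeR called none of the 25 members either, with 0.00758% of all genes called. Only 4 had an unadjusted p under 0.05 (background 10%, 5.06% higher and 4.94% lower): Cxcl1 and Cxcl2 lower, Ccl5 and Cxcl9 higher in CLP+DCA. Cxcl1 came closest, at a log2 fold change of -1.64 (SE 0.26, adjusted p = 0.0967), and was the member in which the 4 CLP+DCA mice did not overlap the 4 CLP mice, as was so for 4.37% of all genes (2.05% lower). DESeq2 called Cxcl1 lower both on all 12 mice (background 0.878%) and on the 8 mice compared (background 0.481%). Cxcl2 was at -1.83 (SE 0.76, adjusted p = 0.455), Ccl5 at 1.27 (SE 0.57, adjusted p = 0.497) and Cxcl9 at 1.03 (SE 0.47, adjusted p = 0.497). The comparisons of CLP+DCA with CLP and of CLP with sham share the CLP mice, so that their opposite signs for these members are not independent of each other.

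Taking CLP+DCA replicate 3 out of the fit changed the calls of these comparisons. For CLP+DCA versus CLP, 6 members were then called, all lower in CLP+DCA: Cxcl1 (-1.89, adjusted p = 0.00779), Cxcl5 (-6.09, adjusted p = 0.0158), Cxcl2 (-3.47, adjusted p = 0.0192), Ccl6 (-1.76, adjusted p = 0.0265), Ccl2 (-2.08, adjusted p = 0.0347) and Cxcl14 (-2.63, adjusted p = 0.0391). Over all 13288 genes tested in that fit, 4.64% were called (2.63% lower). In CLP versus sham 11 members were then called, 8 higher (Cxcl1, Cxcl2, Cxcl5, Cxcl13, Cxcl14, Ccl6, Ccl28 and Cxcr2) and 3 lower (Cxcl9, Cxcl10 and Ccl27a), with 23.8% of all genes called. The mouse was left out because of its place among all genes, after its values had been seen, and nothing in its label sets it apart. Of the 25 members, 12 of its values lay within the range of the CLP mice and 4 within that of the sham mice. For the other CLP+DCA mice these numbers were 7 to 10 within CLP and 10 to 15 within sham.

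**Figure D5:**
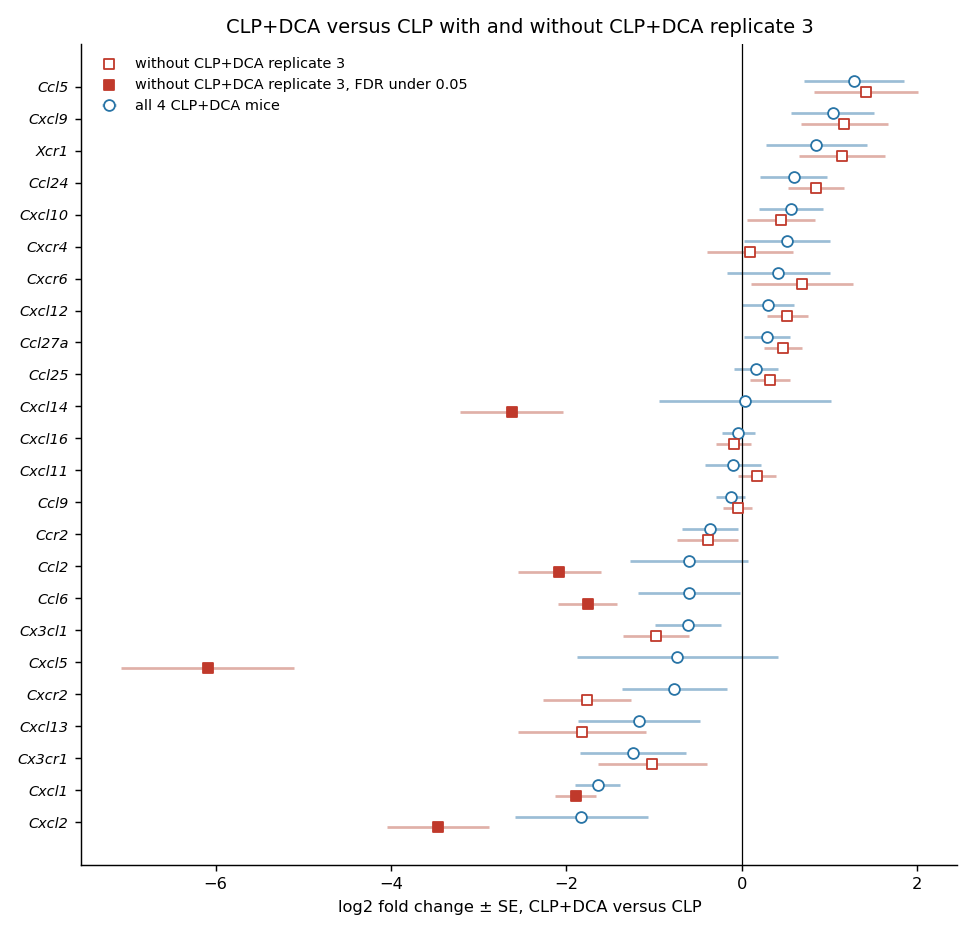
Log2 fold change ± SE of 24 members in CLP+DCA versus CLP, with all 4 CLP+DCA mice (open circles, none past an FDR of 0.05) and without CLP+DCA replicate 3 (squares, filled where past 0.05). Cxcl5 moves from -0.73 to -6.09 and Cxcl14 from 0.03 to -2.63, while Cxcl1 stays near, at -1.64 and -1.89.

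Markers of neutrophils, the cells that Cxcr2 ligands attract, moved with the same mice. The summed CPM of 13 marker genes was 7.58 to 9.93 in sham, 42.7 to 62.3 in CLP, 8.37 to 86.4 in CLP+DCA, and the 86.4 was CLP+DCA replicate 3. This was not particular to neutrophils. The same mouse had the highest sum of its group for monocyte (6356), stellate cell (266), cholangiocyte (213) and platelet (11.2) markers. In sham and CLP the monocyte sum was mostly Fn1, with means of 1957 and 4402 CPM, where F13a1 of the same list had 0.248 and 2.03. That sum is therefore mainly the value of 1 gene. CLP+DCA replicate 3 had the lowest sum of its group for hepatocyte (26595), Kupffer cell (245), T cell (1.65), B cell (0.569) and plasmacytoid dendritic cell (52.9) markers. Of the 11 neutrophil markers that passed the filter, 2 were called higher in CLP versus sham, Retnlg (log2 fold change 3.10) and Itgam (3.42), and Camp had no read in sham. At an unadjusted p under 0.05 in edgeR, 9 of the 11 were higher and 1 was lower, beside 15.5% and 13.1% of all genes. Of 6 monocyte markers that passed, F13a1 alone was called (3.05). Kupffer cell markers had a summed CPM of 190 to 318 for sham, 297 to 378 for CLP and 245 to 483 for CLP+DCA, and none of 10 was called. The hepatocyte list was lower in sum in CLP, at 29353 to 47728 CPM against 64365 to 84585 in sham, with 1 of 8 called, Alb (-1.11). Single calls in CLP versus sham came from sinusoidal endothelium (Stab1, 0.71) and from the plasmacytoid dendritic cell list (Ly6d, 2.19, also found in other lymphoid cells). The other 2 of that list that passed were Bst2 at -1.26 (adjusted p = 0.0615) and Tcf4 at 0.24, and its summed CPM was lower in CLP, at 39.4 to 97.2 against 101.9 to 121.4 in sham. No marker of T cells (3 passed), NK cells (1), conventional dendritic cells (6), stellate cells (8), cholangiocytes (5) or platelets (3) was called in any of the 3 comparisons with all 12 mice. Without CLP+DCA replicate 3, CLP+DCA versus CLP had Cd4 higher and Col1a1 and Sox9 lower among these, and CLP versus sham, with 23.8% of all genes called, had 9 of 11 neutrophil, 6 of 6 monocyte, 4 of 8 stellate cell and 4 of 5 cholangiocyte markers higher and 3 of 4 T cell and 2 of 4 B cell markers lower. The part of any of these cells in the chemokine values was not tested.

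Genes around the chemokine system were taken from lists and compared in CLP versus sham in the same fit. Of 9 further chemokine genes and atypical receptors that passed, none was called. Among 28 genes that signal downstream of chemokine receptors, Pik3r5, a regulatory subunit of PI3K gamma, was higher (1.78). Of 15 NF-κB feedback and target genes, 2 were higher, Nfkbiz (1.501) and Tnip1 (0.64), with a median of 0.67 over the list. Of 15 inducing cytokines and cytokine receptors, Il1b was higher (1.36) and Il18 lower (-0.91), and Il6 and Csf3 had no read in sham. Mmp9, a protease that cleaves chemokines, was the call among 16 proteases, sulfotransferases and presenting molecules (2.38), and Itga4, an integrin of leukocytes, that among 10 adhesion molecules (2.31). These counts stand beside the 2.78% of all genes called. Without CLP+DCA replicate 3 more were called higher in CLP, among them 8 of 16 NF-κB genes and 8 of 15 inducing cytokines and receptors.

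Interferon-response genes, which share inducers with Cxcl9 and Cxcl10, were lower in CLP where called: 4 of 24, among them Irf7 (-0.64), Isg15 (-0.72) and Ifit3 (-1.45), with a list median of -0.37. Without CLP+DCA replicate 3 there were 13 of 24, all lower. Between CLP+DCA and CLP, Irf7, a transcription factor of the interferon response, differed, with more in CLP+DCA (log2 fold change 0.97, adjusted p = 0.0257) and was the single gene called of all 13190. This call was lost in 7 of the 12 fits that left out 1 mouse (without sham replicate 1 or 3, CLP replicate 1, 2 or 4, or CLP+DCA replicate 1 or 2; log2 fold change 0.90 to 1.06 and adjusted p 0.00590 to 0.196 over the 12) and with edgeR on the 8 mice compared (adjusted p = 0.163). In that comparison 17 of the 24 had an unadjusted p under 0.05, all higher, beside 5.06% of all genes, and the list median was 0.61. No gene of the other lists was called in CLP+DCA versus CLP, and none of any list in CLP+DCA versus sham. Without CLP+DCA replicate 3, where 4.64% of all genes were called, 9 of the 24 interferon-response genes were called in CLP+DCA versus CLP, all higher, with a list median of 0.56. In the same fit 8 of 11 neutrophil markers were called lower, as were 3 of 16 NF-κB genes (Ier3, Nfkbiz, Relb), 4 of 15 inducing cytokines and receptors (Ifngr2, Il1b, Il1rn, Osmr) and 3 of 16 proteases and presenting molecules (Mmp2, Mmp8, Mmp9). In CLP+DCA versus sham that fit called no gene of any list.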

How the data were processed

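Livers of 12 mice were sequenced, 4 per group. Poly(A) libraries were read as paired ends; STAR 2.5 (mm10) served as aligner and featureCounts (Subread 1.5.0-p1) as counter, per the labels and the study's methods. The authors deposited raw read counts per gene. Annotation and strand setting are not given in the sources used here.

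In R 4.3.3, genes were filtered (filterByExpr, minimum count 10), normalized by TMM and fitted with edgeR 4.0.16 (robust quasi-likelihood) over all 12 mice; 13190 genes were tested, adjusted by Benjamini-Hochberg at an FDR of 0.05 over all of them. CPM use TMM-normalized library sizes. SE is the log2 fold change divided by the square root of F. Sequenced mice were the replicates; all pairs differed beyond sampling noise. Reads are not independent molecules, so that read-rate intervals and floors cover counting error only. DESeq2 1.42.0 and limma 3.58.1 (voom) were alternatives, as were other filters, scalings, thresholds, a replicate block and leaving out each mouse. The fits were first tested on simulated data.

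Members and gene lists were chosen with earlier results of these data known. Given for every mouse are members past the FDR, the 12 with the smallest p in CLP versus sham, the 4 in CLP+DCA versus CLP and the 6 highest in CPM. Other members were described after their reads were seen. The κB and ISRE patterns were shortened by 1 base after matches to the longer forms had been seen. The longer forms had matched fewer members, most of all for the ISRE core, so that the motif counts given depend on this choice. The values of 1 member that passed the filter are not reported here; it stays in the counts and medians over members.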

Additional observations from a re-analysis of the deposited data

Results flagged for a closer look

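In groups of 4 mice, a value was picked out when its gap to the nearest of the others, on the log2 CPM scale, was a larger share of the group's range than Dixon's 95% critical value allows. Of 45 groups tested (15 members in 3 groups), 4 had such a value, and chance gives about 1 in 20. All 4 were in CLP+DCA replicate 3. It had 2.03 CPM of Cxcl2, where the other CLP+DCA mice had 0.191 to 0.255. For Cxcl14 it had 57.7 CPM against 2.04 to 3.34, and for Cxcl5 2.30 CPM against 0 to 0.0336. Ccl27a was low in it, at 1.62 CPM against 3.10 to 3.39 in the others. The 4 values come from 1 library and are not independent of each other. The summed CPM of the neutrophil markers in this mouse, 86.4, was the highest of its group too, as were those of monocyte, stellate cell, cholangiocyte and platelet markers. The monocyte sum was mostly Fn1 in sham and CLP. The sums of hepatocyte, Kupffer cell, T cell, B cell and plasmacytoid dendritic cell markers were the lowest of the group. The part of any of these cells in the 4 values was not tested.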

How the results depend on the processing

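In CLP versus sham, none of 339 alternative values of the 15 members given mouse by mouse changed sign, while 32 lost and 32 gained significance. Of these 15, 12 were picked for a small p in this comparison, and the alternatives reuse the same mice. A change of sign was therefore unlikely from the start, and its absence does not measure how stable the directions are in CLP versus sham. The number of members called there (4) became 1 without a filter, 13 and 14 with DESeq2 on 12 and on 8 mice, 11 with voom and sample weights, 9 with edgeR on 8 mice, 10 at an FDR of 0.10 and 1 at 0.01. The DESeq2 fits held 50 and 49 members, and some of those called were below edgeR's filter. Leaving out single mice gave 1 to 11. Over all genes the count (367) became 209 on library size alone, 122 without a filter, 1894 and 3428 with DESeq2, 3417 with voom, 2387 with edgeR on 8 mice, 2022 at 0.10 and 10 at 0.01, and 10 to 3157 without single mice.

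In CLP+DCA versus sham, DESeq2 called 3 members on 12 mice and 2 on 8, against 0. All genes called (5) became 3 on library size alone, 248 and 172 with DESeq2, 473 with voom, 0 with edgeR on 8 mice, 1 at 0.01, and 1 to 11 without single mice. In CLP+DCA versus CLP, DESeq2 called 1 member on 12 or 8 mice, voom 8 and an FDR of 0.10 gave 1; leaving out single mice gave 0 to 6, with 1 without CLP replicate 3 and 6 without CLP+DCA replicate 3. All genes called (1) became 137 and 72 with DESeq2, 1287 with voom, 0 with edgeR on 8 mice, 6 at 0.10, 0 at 0.01, and 0 to 616 without single mice.

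Among the 15 members given mouse by mouse, signs reversed only in the comparisons of CLP+DCA with sham and with CLP. There edgeR on all 12 mice had called no member, so that these reversals say nothing about how stable a call is. Ccl2, outside the 15, also turned in CLP+DCA versus sham, to -1.003 without CLP+DCA replicate 3. In CLP+DCA versus sham under voom, Cxcr2 became -0.19, Cxcl5 -0.73, Cxcl9 0.12 and Ccl24 0.11. Without single mice, Cxcl5 ranged from -0.82 (without CLP+DCA replicate 3) to 4.95, Ccl24 from -0.40 to 0.087 (without CLP+DCA replicate 3; 0.019 without sham replicate 1) and Cxcl12 from -0.35 to 0.0015 (without CLP+DCA replicate 3). In CLP+DCA versus CLP, Cxcl14 became -2.10 under voom and ranged from -2.63 (without CLP+DCA replicate 3) to 0.81 without single mice, with -0.17, -0.26 and -0.030 without CLP replicates 1, 3 and 4. Ccl25 ranged from -0.0036 (without CLP+DCA replicate 2) to 0.33, and Ccl9 became 0.011 on library size alone. Apart from the fits with fewer mice or genes, the cause was not tested.

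Mice with the same replicate number in the labels were not more alike than others. Of 12 same-number pairs, 1 had a correlation of deviations over 0.1 (range -0.46 to 0.55), as had 11 of 36 other-number pairs (range -0.61 to 0.70). Correlations that large between other-number mice could hide a pairing, so that this check cannot exclude one. With the replicate number as a block, 1 member (Cxcl1) and 46 genes were called in CLP versus sham, 0 members and 0 genes in CLP+DCA versus sham and 0 members and 4 genes in CLP+DCA versus CLP, where Cxcl14 became -1.21. Scaling by library size alone shifted the median of all genes from 0.018 to -0.15 in CLP versus sham and from 0.0082 to 0.12 in CLP+DCA versus CLP, where 15 members were then higher and 10 lower, against 11 and 14. The legacy quasi-likelihood method, planned as an alternative, is the default of the edgeR version used and so was not run again. The newer method, added after seeing the data, called the same number of members in each comparison. Members with few reads limit what these depths can show.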
